A study of Porphyridium purpureum with 12 samples.

Results

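The genes described here are the 4 glycosyltransferase (GT) genes of families GT8 and GT32 in the red microalga Porphyridium purpureum that were taken by their identifiers from a table of 9898 genes. They are POR4276 (GT8-A) and POR5778 (GT8-B) of family GT8, and POR1493 and POR6478 of family GT32. POR4276, POR5778 and POR1493 lie on scaffold scf295_1 of the assembly and POR6478 on scf227_4. POR4276, POR5778 and POR1493 had been named by the study as differentially expressed in these same libraries. Their changes are therefore no independent support for that choice. POR6478 had not been named so. All 4 genes are in the list of GT genes that the study picked for RT-qPCR. The other genes of both families, and genes that make or use the sugar donors, were set beside them.

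Glycosyltransferases move a sugar from an activated donor, usually a nucleotide sugar, to a growing glycan or to another acceptor. Family GT8 holds enzymes that keep the α configuration of the donor sugar. Both GT8 members carry the annotation glucoside xylosyltransferase 2, the name of an animal enzyme that takes xylose from UDP-xylose and adds it to O-linked glucose on proteins such as Notch. Family GT32 includes Och1, which in the yeast Saccharomyces cerevisiae starts the outer mannose chain of N-glycans in the Golgi with GDP-mannose as donor. POR1493 carries the annotation of this initiation-specific α-mannosyltransferase. The RT-qPCR list of the study describes POR6478 and the other GT32 genes as α-mannosyltransferases too. Porphyridium cells are coated in a sulfated polysaccharide rich in xylose, part of which is released into the medium as exopolysaccharide (EPS). The function of none of these 4 algal proteins was measured here.

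The data are 12 poly-A RNA libraries of strain 1380/1A, with 3 for each of 4 conditions. Cells were grown in photobioreactors under continuous light, and the conditions are named by the nitrate left in the medium, with 1.5 g/L NaNO3 in the nitrogen-replete condition (NR), 0.6 g/L and 0.5 g/L in nitrogen limitation (NL1 and NL2) and 0.3 g/L in late nitrogen depletion (LND). The same conditions are successive time points and growth phases, so nitrate, culture age and growth phase cannot be told apart. The labels call the 3 libraries of a condition technical replicates, so the p-values rest on differences among libraries, and variation among cultures was not measured.

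Library totals ran from 6398926 to 30556820 counts, and counts of the members from 143 to 4777 per library, with counting errors of 8.36% and 1.45% respectively. The NR library 3 was the shallowest and stood apart from the other NR libraries. Its root mean square (RMS) difference from them in log2 CPM was 0.827 and 0.845, against 0.310 between NR libraries 1 and 2 and 0.282 to 0.468 within the other conditions. In this library all 4 members were at their highest NR level, as were 44.5% of the 9255 genes expressed above the count filter. Levels are given in CPM (counts relative to library size) scaled by TMM, the trimmed mean of M-values, and they are shares of the sequenced mRNA, so a change in a share and a change in the mRNA content of a cell cannot be told apart. The TMM factors of the LND libraries (0.833 to 0.857) lay below those of all others (0.994 to 1.14). Levels cannot be compared between genes because gene lengths were not used here.

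POR4276 (GT8-A) was high in both NL conditions and low before and after. Its level was 24.9, 24.5 and 34.8 CPM in the NR libraries and 56.8, 61.1 and 62.2 CPM in NL1. It was 68.9, 74.4 and 82.8 CPM in NL2 and 23.1, 24.8 and 23.9 CPM in LND. Every NL library lay above every NR and LND library, and every NL2 library lay above every NL1 library. NR and LND overlapped only through LND library 2, at 24.8 CPM against 24.5 CPM in NR library 2. With library totals they did not overlap. The means stood at 28.0 ± 5.82 CPM for NR, 60.01 ± 2.86 for NL1, 75.4 ± 7.02 for NL2 and 24.0 ± 0.859 for LND (SD, n = 3).

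POR5778 (GT8-B) also peaked in NL2 but was lowest in LND. Its NR libraries held 64.0, 72.4 and 101 CPM, and its NL1 libraries 105.7, 103.7 and 148 CPM. The NL2 libraries held 161, 151 and 184 CPM and the LND libraries 41.6, 38.1 and 35.6 CPM. No pair of conditions overlapped, although the highest NR library lay only just below the lowest NL1 library. The means fell in the order NL2 (166 ± 16.8 CPM), NL1 (119 ± 25.1), NR (79.2 ± 19.5) and LND (38.4 ± 3.02; SD, n = 3).

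POR1493, the GT32 gene annotated as initiation-specific, took one high level in nitrogen limitation and one low level outside it. The NR libraries held 13.6, 15.1 and 19.6 CPM and the NL1 libraries 47.1, 51.5 and 46.6 CPM. The NL2 libraries held 47.8, 44.4 and 46.8 CPM and the LND libraries 19.4, 15.4 and 15.9 CPM. NL1 and NL2 overlapped, as did NR and LND, and every NL library lay above all others. The means were 48.4 ± 2.72 CPM in NL1, 46.3 ± 1.76 in NL2, 16.9 ± 2.15 in LND and 16.1 ± 3.13 in NR (SD, n = 3).

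POR6478, the second GT32 gene, stayed within one range. It had 37.2, 38.5 and 50.6 CPM in the NR libraries and 52.1, 42.7 and 39.9 CPM in NL1. It had 40.2, 46.8 and 67.0 CPM in NL2 and 46.2, 55.1 and 44.7 CPM in LND. All 4 conditions overlapped with each other, and the highest value came from NL2 library 3. The means lay between 42.1 ± 7.40 CPM in NR and 51.3 ± 13.9 CPM in NL2 (SD, n = 3).

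**Figure D1:**
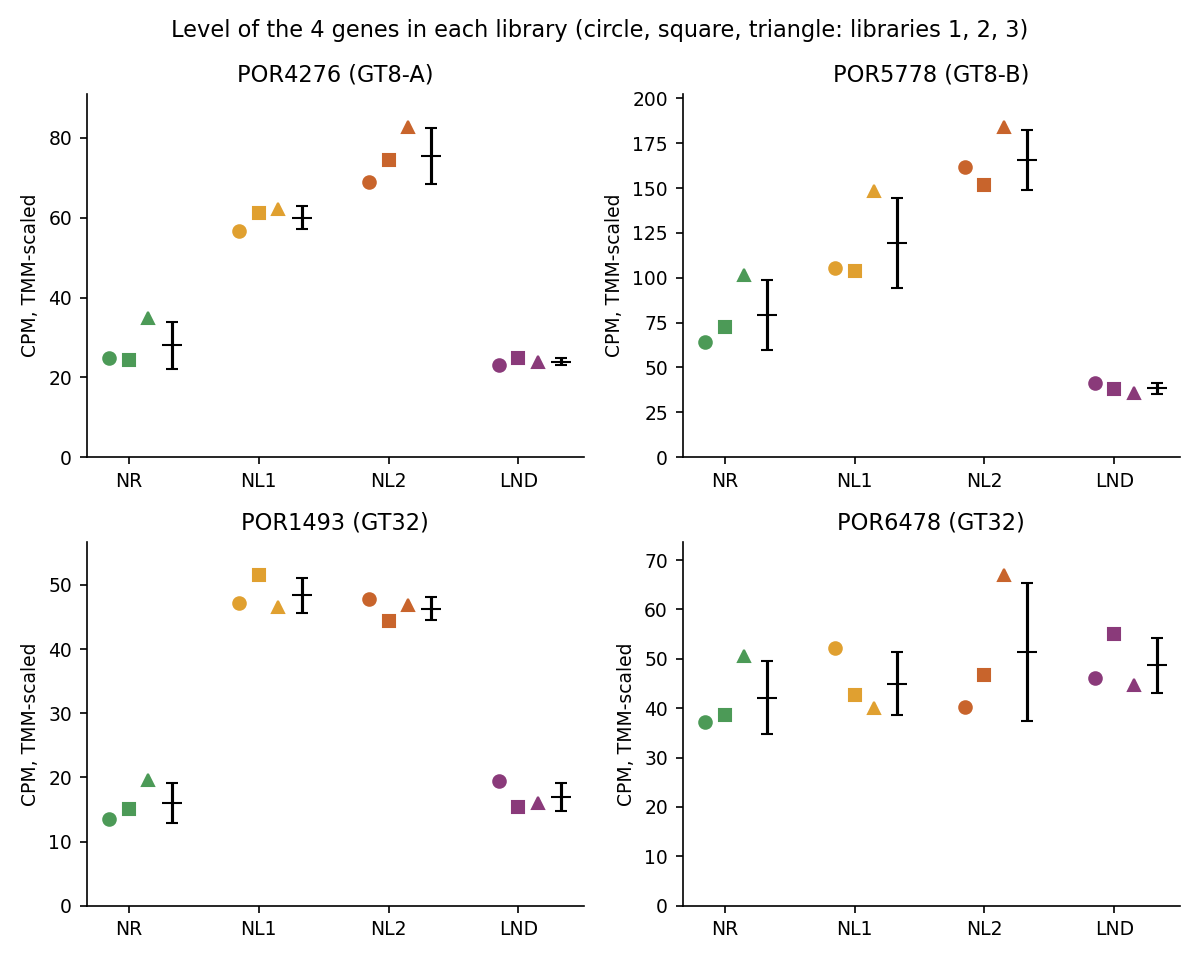
TMM-scaled CPM of the 4 genes in each library (y axis, from 0) by condition (x axis); circles, squares and triangles are libraries 1, 2 and 3 of a condition, and bars give the mean ± SD. POR4276, POR5778 and POR1493 are highest in NL1 and NL2, with POR1493 near 48.4 CPM in NL1 and 16.9 CPM in LND, while the points of POR6478 overlap in all conditions.

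Conditions were compared in pairs, each from 6 libraries, by the quasi-likelihood test of edgeR with Benjamini-Hochberg adjustment over all genes tested. A call needed an adjusted p under 0.01 together with a log2 fold change (log2FC) no smaller in size than 1. All 4 members passed the filter on low counts in all 6 comparisons. The comparisons share libraries, so their errors are not independent.

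From NR to nitrogen limitation, 2 of the 4 members were called higher in NL1 and 3 in NL2. In NL1 vs. NR, where 14.5% of the 9192 genes tested were called (6.55% higher), POR1493 rose 3.03-fold with a log2FC of 1.60 ± 0.19 (SE; adjusted p = 3.0e-04 in edgeR's test). Only 2.30% of the genes tested had a larger log2FC. POR4276 rose 2.15-fold (log2FC 1.11 ± 0.18, edgeR adjusted p = 0.0016), a call that was lost without NL1 library 2 or 3 (log2FC 1.09 and 1.08, edgeR adjusted p just over 0.01 in both). POR5778 had a log2FC of 0.59 ± 0.21 and was not called (edgeR adjusted p = 0.058), although its libraries did not overlap between the conditions. POR6478 had a log2FC of 0.097 ± 0.19, with a 95% interval of -0.32 to 0.51. Without NR library 3, the library that stood apart, the log2FC values of POR4276, POR5778 and POR1493 were 1.28, 0.81 and 1.76, with the same calls.

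In NL2 vs. NR, 16.4% of 9172 genes were called (7.33% higher), among them both GT8 members and POR1493. POR1493 rose 2.87-fold (log2FC 1.52 ± 0.19, edgeR adjusted p = 2.9e-04) and POR4276 rose 2.68-fold (log2FC 1.42 ± 0.18, edgeR adjusted p = 3.1e-04). POR5778 rose 2.08-fold (log2FC 1.06 ± 0.19, edgeR adjusted p = 0.0018). The call for POR5778 lay close to the fold threshold and was lost without NR library 1 (log2FC 0.92) or NL2 library 3 (log2FC 0.97, edgeR adjusted p = 0.014), and with scaling by library totals (log2FC 0.97). POR6478 had a log2FC of 0.27 ± 0.22, with a 95% interval of -0.22 to 0.77. Without NR library 3 the log2FC values of POR4276, POR5778 and POR1493 in this comparison were 1.60, 1.27 and 1.69. The RT-qPCR of the study did not show the rise of the GT8 members. Its fold change from NR to nitrogen limitation was negative for POR4276, POR5778 and POR6478 and positive for POR1493. None of these was marked as significant.

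NL1 and NL2 were not told apart at the threshold used. Of 9104 genes, 0 were called in NL2 vs. NL1 by edgeR's quasi-likelihood test (0%), with 827 at an unadjusted p under 0.05, 2 called by the likelihood ratio test of DESeq2 and 40 called by edgeR without NL1 library 3. The GT8 members both had positive values, with a log2FC of 0.33 ± 0.12 for POR4276 and 0.47 ± 0.15 for POR5778 (edgeR adjusted p = 0.51 and 0.50). The log2FC was -0.067 ± 0.12 for POR1493 and 0.19 ± 0.19 for POR6478.

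From nitrogen limitation to late depletion, the 3 genes called higher in NL2 were called lower in LND. In LND vs. NL1, where 12.3% of 9045 genes were called (5.75% lower), POR5778 fell 3.10-fold (log2FC -1.63 ± 0.15, edgeR adjusted p = 9.8e-07). POR1493 fell 2.86-fold (log2FC -1.52 ± 0.15, edgeR adjusted p = 2.5e-06) and POR4276 fell 2.51-fold (log2FC -1.33 ± 0.13, edgeR adjusted p = 1.9e-06). Their libraries did not overlap between the conditions. POR6478 was not called, with a log2FC of 0.11 ± 0.14 and a 95% interval of -0.19 to 0.42.

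In LND vs. NL2, 13.5% of 9029 genes were called (6.52% lower), and the fall of POR5778 was 4.31-fold (log2FC -2.11 ± 0.12, edgeR adjusted p = 1.9e-09). Only 0.797% of the genes tested had a lower value. POR4276 fell 3.14-fold (log2FC -1.65 ± 0.13, edgeR adjusted p = 7.1e-08) and POR1493 fell 2.74-fold (log2FC -1.45 ± 0.15, edgeR adjusted p = 1.3e-06). POR6478 had a log2FC of -0.076 ± 0.17, with a 95% interval of -0.45 to 0.30. The calls of the 3 genes that fell were kept in both LND vs. NL comparisons without any 1 library and under all other settings tried. In the RT-qPCR of the study, the fold change from nitrogen limitation to LND was negative for POR5778 and POR1493. For POR4276 and POR6478 it was positive, and none of these was marked as significant. The RT-qPCR fold change of POR5778 from NR to LND was negative and marked as significant.

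Over the whole course, LND vs. NR, only POR5778 of the 4 members was called, where 19.7% of 9150 genes were called (11.8% lower). It was 2.15-fold lower in LND (log2FC -1.11 ± 0.19, edgeR adjusted p = 0.0012). This call was lost without NR library 3, which held the highest NR level (log2FC -0.90), and without LND library 3 (log2FC -1.05, edgeR adjusted p = 0.0105). POR4276 had a log2FC of -0.29 ± 0.20 and POR6478 of 0.15 ± 0.17. POR1493 had a log2FC of 0.015 ± 0.24, and its sign changed with the scaling and with the libraries used. With library totals in place of TMM, the median log2FC over all genes shifted by -0.31 (LND vs. NR), -0.32 (LND vs. NL1) and -0.29 (LND vs. NL2), so small differences between LND and other conditions depended on the scaling.

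**Figure D2:**
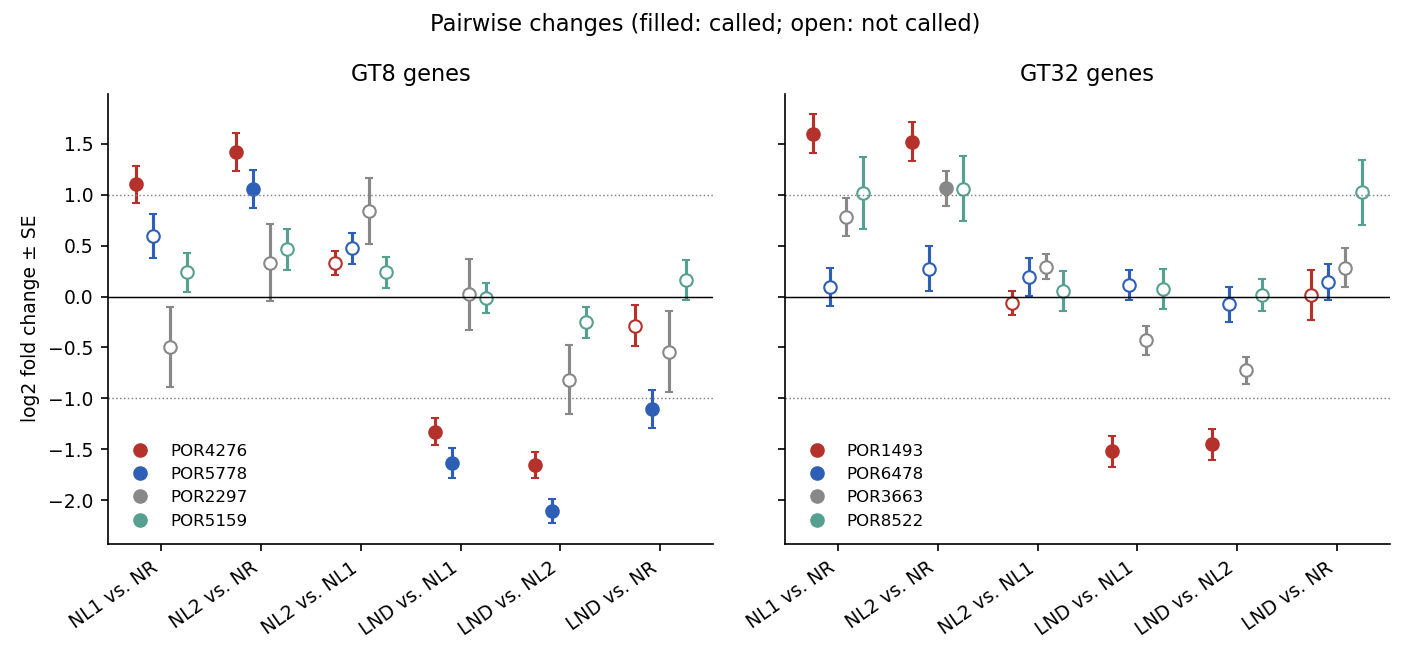
Log2 fold change ± SE (y axis) of 4 GT8 genes (left) and 4 GT32 genes (right) in the 6 comparisons (x axis), with called genes filled and dotted lines at a log2FC of 1 and -1. POR4276, POR5778 and POR1493 lie above the upper line in NL2 vs. NR and below the lower line in both LND vs. NL comparisons, and POR6478 stays between -0.076 and 0.27 in all 6.

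Whether the members of one family differed in their response was tested on the ratio of their counts within each library, which does not depend on how libraries are scaled. NL1 and NL2 were pooled as nitrogen limitation (NL), and p-values of the exact two-sided permutation tests were adjusted by Benjamini-Hochberg over 6 tests. A difference was taken as past the threshold at an adjusted p under 0.05. The pool joins technical replicates of separate time points, so its 6 libraries are not independent replicates of a condition. An exact permutation test of 3 libraries against 3 cannot give a p below 0.10. Passing the threshold therefore depended on the pooling. POR1493 had been named as changing in these same libraries and POR6478 had not. The GT32 test therefore partly restates that choice and is no independent evidence that the genes differ. Both GT8 members had been named as changing, so the GT8 test is not independent of the earlier results either.

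In GT32 the ratio of POR1493 to POR6478 rose from NR to NL and fell from NL to LND. Its log2 value was -1.46, -1.35 and -1.37 in the NR libraries and -0.14, 0.27 and 0.22 in NL1. It was 0.25, -0.076 and -0.52 in NL2 and -1.25, -1.84 and -1.48 for LND. The 6 NL libraries did not overlap with NR or LND, and NR and LND overlapped. The mean was higher by 1.39 in NL (0.00038 ± 0.31, n = 6) than in NR (-1.39 ± 0.056, n = 3; SD), a 2.62-fold difference (exact permutation p = 0.024, the smallest possible over 84 splits, adjusted p = 0.048). It was lower by 1.52 in LND (-1.52 ± 0.29, n = 3) than in NL (exact permutation p = 0.024, adjusted p = 0.048). LND and NR differed by -0.13 (exact permutation p = 0.60, n = 3 each).

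In GT8 the ratio of POR4276 to POR5778 rose from NR to NL. The log2 ratio was -1.36, -1.57 and -1.54 in the NR libraries and -0.90, -0.76 and -1.25 in NL1. It was -1.23, -1.03 and -1.15 in NL2 and -0.85, -0.62 and -0.57 in LND. NR lay below all other libraries, while NL and LND overlapped through NL1. The mean was higher by 0.44 in NL (-1.05 ± 0.20, n = 6) than in NR (-1.49 ± 0.11, n = 3; SD), a 1.35-fold difference (exact permutation p = 0.024, adjusted p = 0.048). LND (-0.68 ± 0.15, n = 3) was higher than NL by 0.37, which missed the threshold (exact permutation p = 0.048, adjusted p = 0.071).

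Between LND and NR the GT8 log2 ratio differed by 0.81, or 1.75-fold, with no overlap, but 3 libraries against 3 cannot reach a p below 0.10 (exact permutation p = 0.10, adjusted p = 0.12). In LND all GT8-B libraries lay below their NR libraries. The GT8-A libraries overlapped with NR only through LND library 2 (24.8 CPM, against 24.5 CPM in NR library 2), and not with library totals. With any 1 library left out the smallest p allowed by the exact permutation test is larger, and no ratio test passed the threshold (adjusted p of 0.054 to 0.14 for the 3 that had passed). The differences themselves stayed between 0.38 and 0.50 for GT8 in NL vs. NR, between 1.34 and 1.50 for GT32 in NL vs. NR, and between -1.66 and -1.37 for GT32 in LND vs. NL.

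**Figure D3:**
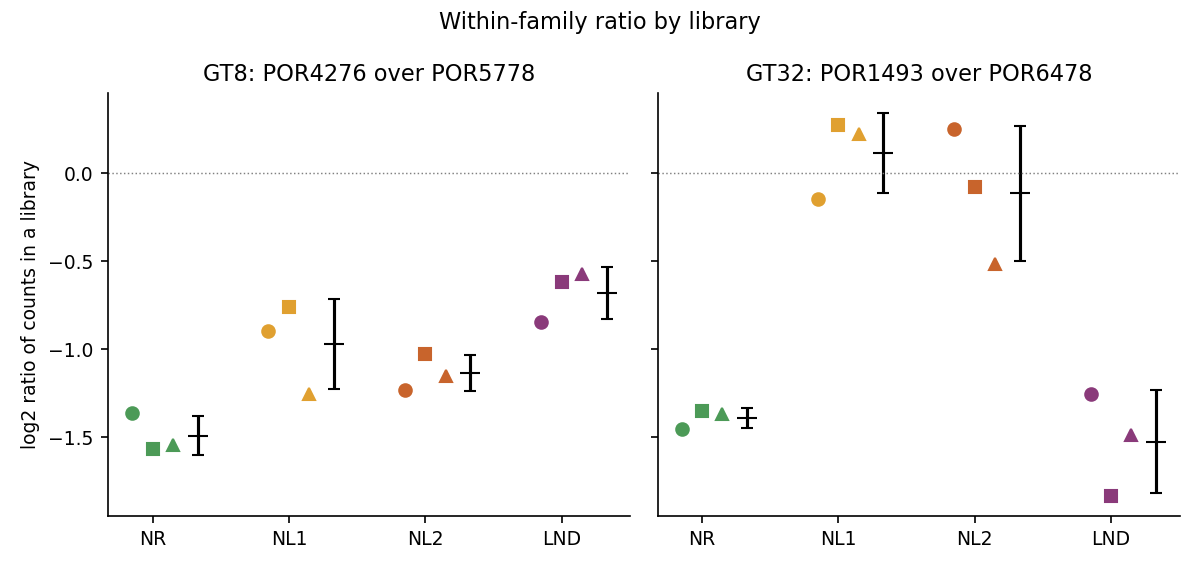
Log2 ratio of the counts of the 2 family members in each library (y axis) by condition (x axis), for GT8 (left) and GT32 (right); circles, squares and triangles are libraries 1, 2 and 3, and bars give the mean ± SD. The GT32 ratio is near 0 in NL and near -1.39 and -1.52 in NR and LND, while the GT8 ratio runs from a mean of -1.49 in NR to -0.68 in LND.

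The annotation of carbohydrate-active enzymes used by the study holds 63 GT genes, of which 3 belong to GT8 and 4 to GT32, and 61 passed the count filter. Among these 61, NL1 vs. NR gave 6 increases and 6 decreases, so that 19.7% were called, against 14.5% of all genes tested. NL2 vs. NR gave 8 and 6 (23.0% called, against 16.4%), and LND vs. NR 3 and 9 (19.7%, the same as over all genes). LND vs. NL1 gave 2 and 9 (18.0% against 12.3%) and LND vs. NL2 3 and 9 (19.7% against 13.5%). The members account for 2 and 3 of the increases and for 3 of the decreases in each LND vs. NL comparison. POR5778 had the lowest log2FC of all 61 GT genes in LND vs. NL2. The median log2FC of the GT genes was 0.037 for NL1 vs. NR and -0.031 for LND vs. NL2, against 0.0057 and -0.016 over all genes tested.

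The remaining GT8 genes were not called in any comparison. POR2297, the third GT8 gene, had 48 to 307 counts per library. Its mean was 7.80 ± 2.66 CPM in NL2, its highest, against 4.35 ± 0.486 CPM for NL1, its lowest (SD, n = 3). Its log2FC was 0.84 ± 0.32 in NL2 vs. NL1 (edgeR adjusted p = 0.52) and -0.82 ± 0.34 in LND vs. NL2 (edgeR adjusted p = 0.066). The libraries did not overlap in either comparison, and only 0.659% of the genes tested had a larger log2FC in NL2 vs. NL1. Without NL2 library 1, which held the highest level at 10.7 CPM, these values were 0.54 and -0.52. POR5159, listed as GT8 among the RT-qPCR genes but as GT2 in the enzyme annotation, had means of 33.1 to 46.1 CPM, and its log2FC lay between -0.25 ± 0.15 (LND vs. NL2) and 0.47 ± 0.20 (NL2 vs. NR). Of the remaining GT32 genes, POR3663 peaked in NL2 at 91.8 ± 6.03 CPM, after 43.5 ± 8.82 in NR and 74.7 ± 8.53 in NL1, and then came to 55.6 ± 8.96 in LND (SD, n = 3). It was called in NL2 vs. NR (2.09-fold, log2FC 1.06 ± 0.17, edgeR adjusted p = 0.0012), a call lost without NR library 2 (log2FC 0.93) and with library totals (0.99). Its fall from NL2 to LND had a log2FC of -0.73 ± 0.13, under the fold threshold, but it was called with library totals (log2FC -1.02, edgeR adjusted p = 1.2e-05).

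POR8522, the last GT32 gene, had 14.8 ± 6.30 CPM in NR and 30.5 ± 7.91, 31.7 ± 4.20 and 32.1 ± 3.90 CPM over NL1, NL2 and LND (SD, n = 3). The NR libraries lay below all others, with NR library 3 at 7.53 CPM against 18.5 and 18.4 CPM. The log2FC against NR was 1.02 to 1.06 in the 3 comparisons and missed the threshold on p (edgeR adjusted p = 0.049, 0.027 and 0.027). It passed in NL2 vs. NR with the likelihood ratio test of DESeq2 (adjusted p = 0.0090), and also for LND vs. NR (0.0098), and in all 3 comparisons when edgeR was fitted to the 12 libraries at once (adjusted p = 0.0087, 0.0058 and 0.0047). The courses of POR3663 and POR8522 were not tested against those of the members.

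Genes that make or use UDP-xylose and GDP-mannose or their precursors were described next, as these are the donors that the annotations of the members point to. These lists were chosen by the study from genes that changed in these libraries, so their direction is not independent evidence. Of 4 genes on the way to UDP-xylose, 3 were higher in both NL conditions than in NR, against 6.55% and 7.33% of all genes. UGDH (POR2992), which oxidizes UDP-glucose to UDP-glucuronate, rose 3.87-fold and 5.30-fold (log2FC 1.95 ± 0.30 and 2.41 ± 0.30). UXS1 (POR4905), which turns UDP-glucuronate into UDP-xylose, rose 2.03-fold and 2.50-fold (log2FC 1.02 ± 0.17 and 1.32 ± 0.13). The call of UXS1 in NL1 vs. NR was lost without NR library 1 or 2 or NL1 library 3 (log2FC 0.99, 1.00 and 0.86), and with library totals (0.94). UGP2 (POR1962), which makes UDP-glucose, rose 2.24-fold and 2.66-fold (log2FC 1.16 ± 0.18 and 1.41 ± 0.17).

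In LND vs. NL1, 1 of the 4 UDP-xylose genes was called higher and 1 lower (12.3% of all genes called), and in LND vs. NL2, 1 higher and 2 lower (13.5%). UGDH fell in both comparisons (log2FC -1.90 ± 0.11 against NL1 and -2.36 ± 0.10 against NL2), as the GT8 members did. UXS1 fell against NL2 (log2FC -1.22 ± 0.087) and had a log2FC of -0.90 ± 0.13 against NL1, which was called with library totals only (-1.20). UGP2 was called in neither (log2FC -0.23 ± 0.13 and -0.50 ± 0.10), and its LND libraries, at 187 ± 10.5 CPM (SD, n = 3), lay above all NR libraries (97.9 ± 16.6). PGM2 (POR0605), the phosphoglucomutase that feeds UDP-glucose synthesis, rose instead to 206 ± 31.2 CPM in LND from 100.4 ± 5.89 in NL1 and 97.3 ± 10.7 in NL2 (SD, n = 3; log2FC 1.04 ± 0.13 and 1.09 ± 0.12). Both PGM2 calls were lost without LND library 1 (log2FC 0.92 and 0.98) and with library totals (0.72 and 0.79).

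All 3 GDP-mannose genes were called higher in NL1 and NL2 than in NR, against 6.55% and 7.33% of all genes. PMM (POR7125), a phosphomannomutase, rose 3.11-fold and 3.33-fold (log2FC 1.64 ± 0.15 and 1.74 ± 0.14), and GMPP (POR2740), which makes GDP-mannose, 2.94-fold and 3.25-fold (log2FC 1.55 ± 0.20 and 1.70 ± 0.19). GME (POR1248), an epimerase that uses GDP-mannose, rose 2.07-fold and 2.32-fold (log2FC 1.05 ± 0.19 and 1.22 ± 0.17). Its call in NL1 vs. NR was lost without NR library 1 or 2 or NL1 library 2 or 3 (log2FC 0.99, 0.93, 1.04 and 1.01), and with library totals (0.98). In LND vs. NL2, PMM and GMPP fell (log2FC -1.11 ± 0.10 and -1.05 ± 0.11) and GME had a log2FC of -0.72 ± 0.085, which was called with library totals (-1.02). The fall of GMPP was not called without LND library 3 (log2FC -0.99).

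With TMM scaling, POR1493 and these GDP-mannose genes differed in where they ended. In LND, POR1493 was back in its NR range, whereas the LND libraries of PMM, GMPP and GME all lay above their NR libraries. Their log2FC values of 0.57 ± 0.15, 0.60 ± 0.20 and 0.45 ± 0.17 were not called. With library totals the median log2FC over all genes in LND vs. NR shifted by -0.31, and the libraries of PMM, GMPP and GME then overlapped. None of these differences between genes was tested.

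**Figure D4:**
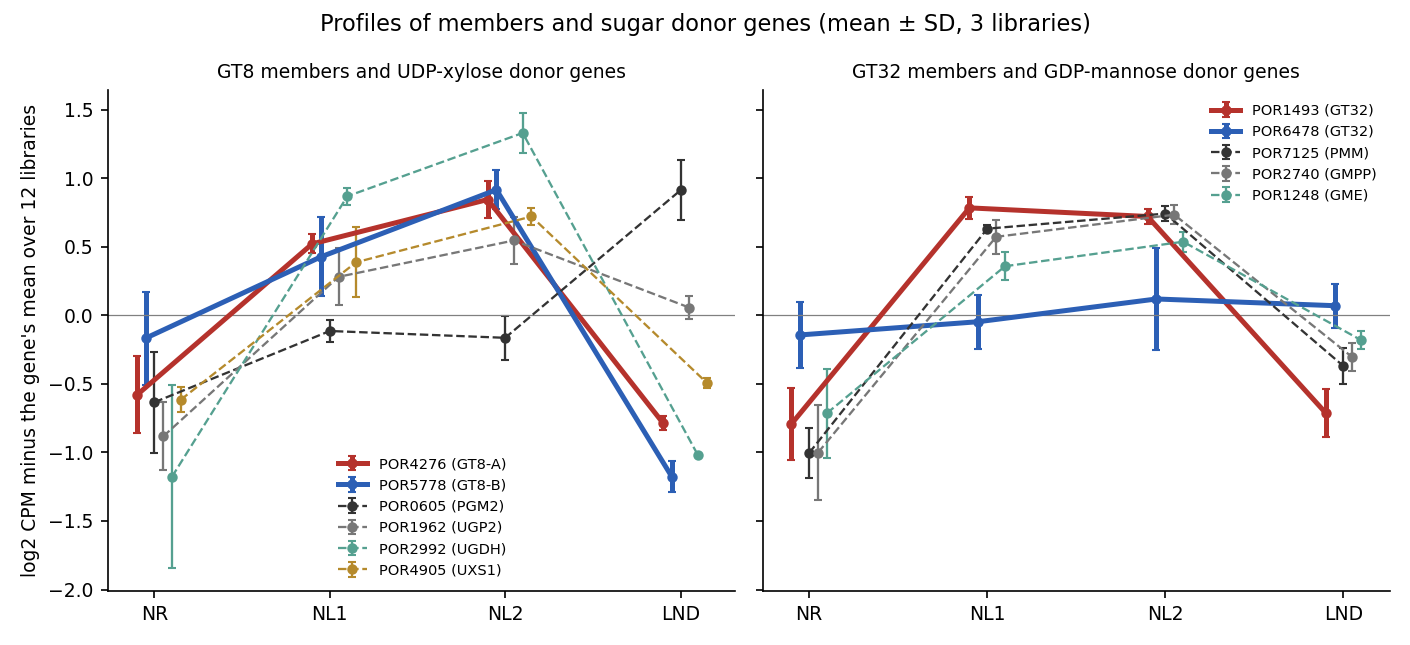
Log2 CPM minus the mean of the gene over the 12 libraries (y axis; 0.5 CPM added) by condition (x axis), as mean ± SD of 3 libraries, for the GT8 members with 4 UDP-xylose donor genes (left) and the GT32 members with 3 genes of the GDP-mannose donor list, of which GME uses GDP-mannose (right). Solid lines are members and dashed lines donor genes; PGM2 alone is highest in LND, at 206 CPM, and POR6478 is the flat line on the right.

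A list of 4 genes of N-glycan assembly and processing was set beside POR1493. OSTC, RPN2 and ALG5 were listed by the study under glycan assembly from genes that changed in these libraries, and POR4794, a GT13 gene, was added here. The number called among them is therefore no independent evidence about N-glycan genes. In NL1 vs. NR 2 of the 4 were called higher (6.55% of all genes) and in NL2 vs. NR 1 (7.33%), while LND vs. NR gave 1 higher and 1 lower (19.7% called in either direction).

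OSTC (POR5075), a subunit of the oligosaccharyltransferase that moves the glycan to the protein, rose 4.26-fold in NL1 (log2FC 2.09 ± 0.34), a call lost without NL1 library 1 or 2 (log2FC 2.02 and 2.07). It rose in NL2 as well (log2FC 1.63 ± 0.38), a call lost without any 1 library other than NR library 3 (1.46 to 1.80). RPN2 (POR7179), another subunit, rose 2.55-fold in NL1 (log2FC 1.35 ± 0.28), a call lost without any 1 library other than NR library 3 (1.17 to 1.49) and with library totals (1.29). Its log2FC in NL2 vs. NR was 0.83 ± 0.28, called only without NR library 3 (1.03), and it fell in LND vs. NL1 (log2FC -1.14 ± 0.23), a call lost without NL1 library 1 or LND library 1 (-0.99 and -0.95).

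ALG5 (POR6123), which makes the dolichol-linked glucose used in glycan assembly, had a log2FC against NR of 0.82 ± 0.33 for NL1 and 0.56 ± 0.37 for NL2, neither of them called. It was called higher in LND vs. NR (log2FC 1.36 ± 0.30), a call lost without NR library 2 or any 1 LND library (1.26 to 1.46) and with library totals (1.06). POR4794, annotated as an N-acetylglucosaminyltransferase of N-glycan processing, lay on the other side. Against NR its log2FC was -0.84 ± 0.19 for NL1 and -0.91 ± 0.22 for NL2, both under the fold threshold, and it was called lower in LND vs. NR (log2FC -1.10 ± 0.19). This last call was lost without NR library 3 (log2FC -0.98).

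The genes with the course most like each member were found by the RMS difference of log2 CPM over the 12 libraries, each gene centered on its own mean, among 9254 genes. The points share libraries and conditions, so these are descriptions without a test, and nothing follows from them about function. The nearest to POR4276 were POR9225, POR7118 and POR4993 (RMS 0.142, 0.149 and 0.163, against a median of 0.814 over all genes). The nearest to POR5778 were POR6237, POR9645 and POR0544 (0.183, 0.184 and 0.206, median 0.910). The course of POR9645, for example, ran from 17.7 ± 2.74 CPM in NR through 32.0 ± 3.20 (NL1) and 39.1 ± 1.77 (NL2) to 9.74 ± 0.828 (LND; SD, n = 3), with LND lowest as in POR5778.

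The nearest to POR1493 were POR4923, POR0407 and POR9264 (RMS 0.123, 0.171 and 0.179, median 0.860). POR4923 ran from 195 ± 23.2 CPM in NR through 582 ± 19.5 (NL1) and 618 ± 53.8 (NL2) to 202 ± 35.7 (LND; SD, n = 3). The nearest to POR6478 were POR5981, POR5059 and POR0192 (0.116, 0.119 and 0.140, median 0.480).

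Among the members, the closest pair crossed the families. POR1493 and POR4276 differed by an RMS of 0.220, which placed POR4276 at rank 13 from POR1493, and POR1493 at rank 25 from POR4276. The GT8 genes POR4276 and POR5778 differed by 0.320 (rank 38 from POR5778 and 165 from POR4276). The GT32 genes POR1493 and POR6478 differed by 0.754 (rank 3013 from POR1493 and 7519 from POR6478). Among the UDP-xylose genes, UXS1 lay at rank 19 from POR4276 (0.211), UGDH at 617, UGP2 at 1030 and PGM2 at 7190. From POR5778 the same genes lay farther off, with UXS1 at rank 193 and UGDH at 828. From POR1493 the GDP-mannose genes PMM, GMPP and GME lay at ranks 28 (0.245), 171 and 205, and UXS1, of the other donor, at rank 66.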

How the data were processed

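The authors' deposited values are raw counts of reads per gene from stranded paired-end mRNA libraries, aligned by STAR 2.7.8a and counted by featureCounts 2.0.1 against the version 2 annotation, without normalization. Whether counting used strand is not given in the sources used here, so overlapping genes could share reads. All 12 columns were matched to the labels (0 unmatched), with the label ND read as LND. Replicates are technical in the labels and biological in one caption of the study, and the labels were followed.

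Pairs of conditions were fitted in edgeR 4.0.16 (R 4.3.3), with TMM, filterByExpr (minimum count 10), the quasi-likelihood F-test and Benjamini-Hochberg adjustment. The SE is the log2FC divided by the square root of F. Ratios used counts with 0.5 added, and profiles log2(CPM + 0.5). Alternatives were DESeq2 1.42.0 (likelihood ratio test), other scalings, no filter, 1 fit of all 12 libraries, a replicate block and leaving out each library. Named genes are the members, their families, the donor and N-glycan lists and the 3 nearest genes per member. Members and lists were chosen with earlier results of these data known. The procedure was tested on simulated data. No sequences were used here.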

Additional observations from a re-analysis of the deposited data

How the results depend on the processing

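Among the 4 members, 1 call changed under other settings, that of POR5778 in NL2 vs. NR (log2FC 0.97 with library totals). With library totals the signs of 3 values that were not called reversed, POR1493 and POR6478 in LND vs. NR (-0.31 and -0.18) and POR6478 in LND vs. NL1 (-0.21). The LND levels then became 20.2 CPM for POR4276, 32.3 for POR5778, 14.2 for POR1493 and 40.9 for POR6478. DESeq2 called 2 genes in NL2 vs. NL1. Adding 5 in place of 0.5 to the counts left all 6 ratio tests on their side of the threshold.

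Without each library in turn, the number of members called ran from 1 to 2 in NL1 vs. NR and from 0 to 1 in LND vs. NR, and genes called in NL2 vs. NL1 from 0 to 40. The log2FC of POR4276 ran from 1.02 to 1.28 in NL1 vs. NR, and that of POR5778 from 0.92 to 1.27 in NL2 vs. NR and from -1.24 to -0.90 in LND vs. NR. Values that were not called crossed 0 for POR6478, from -0.019 to 0.24 in NL1 vs. NR, -0.22 to 0.16 in LND vs. NL2 and -0.048 to 0.34 in NL2 vs. NL1, and for POR1493, from -0.094 to 0.17 in LND vs. NR. Ratio differences ran from 0.38 to 0.50 (GT8) and 1.34 to 1.50 (GT32) in NL vs. NR, and for GT32 from -1.66 to -1.37 in LND vs. NL and -0.27 to 0.023 in LND vs. NR, with fewer splits available to each test.

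Replicate numbers were not taken as pairs: correlations of deviations between equally numbered libraries lay between -0.29 and 0.11. With the replicate block no member's call changed (POR4276 in NL1 vs. NR, log2FC 1.12), while RPN2 in NL1 vs. NR (1.36) and OSTC in NL2 vs. NR (1.68) lost theirs.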
